A study of Mus musculus with 3 samples.

Results

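The binding sites of BACH2 and JunD were described around 4 genes of T cell activation, Rgs1, Cd69, Cd44 and Nr4a1, in mouse induced regulatory T cells (iTreg cells). The members are all peaks of either factor that overlap a window set around each gene in mm9 coordinates, which is 146040000 to 146150000 on chromosome 1 for Rgs1, 129170000 to 129290000 on chromosome 6 for Cd69, 102620000 to 102790000 on chromosome 2 for Cd44 and 101040000 to 101140000 on chromosome 15 for Nr4a1. These windows held 23 of the 9133 BACH2 peaks and 21 of the 5237 JunD peaks. The members were chosen by position, but the windows were proposed with the peak positions, scores and q-values of these lists known, so everything below is a description and no test was made.

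The mice were wild-type C57BL/6, between 8 and 12 weeks old, and the cells came from their spleens. CD4+ T cells were sorted and grown for 4 days on plates coated with antibodies to CD3ε and CD28, with TGF-β in the medium, so activation through these receptors and exposure to TGF-β are common to both libraries. BACH2 and JunD each had 1 chromatin immunoprecipitation (ChIP-seq) library, the labels name 2 catalogue numbers for the JunD antibody without saying which was used, and an input library was not analysed here. Without replicates there is no error on any value, and a difference between the factors cannot be told apart from a difference between these libraries. The lists hold no expression values, so the identity of the cells was not checked against marker genes, and no mm9 gene annotation was used, so a peak is placed in a window and not in a gene.

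As background, stimulation of the T cell receptor activates AP-1, a dimer of Jun and Fos family proteins that binds DNA through basic leucine zippers. JunD is a member of the Jun family. BACH2 is a basic leucine zipper repressor that recognises related sequences and restrains effector programmes in T cells. Nr4a1 (Nur77) is a nuclear receptor gene induced within hours by receptor signals, Cd69 encodes an early activation antigen that holds cells in tissue by removing the S1P receptor S1PR1 from the surface, Rgs1 encodes a GTPase-activating protein that dampens chemokine receptor signals, and Cd44 encodes the hyaluronan receptor, a marker of activated and memory T cells. In the RefSeq gene table of GRCm38, used here for the order of protein-coding genes only, the neighbours of Rgs1 were Rgs13 and Rgs21, both of its own family. Those of Cd69 were the C-type lectin genes Clec2d and Clec2m, those of Cd44 were Slc1a2 and Pdhx, and those of Nr4a1 were Grasp and Atg101.

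Sequences of the peaks are not shown, because no mm9 sequence was used. RefSeq promoters of GRCm38.p6 were matched by symbol for 2 of the 4 genes, Cd44 and Nr4a1, and the 250 bases before the start site are printed 5′ to 3′ on the strand of the gene, because these genes differ in whether BACH2 peaks lay in their windows. The Nr4a1 stretch is chr15:101266596-101266845 on the plus strand and the Cd44 stretch is chr2:102901666-102901915 on the minus strand. These are GRCm38.p6 positions and cannot be compared with the mm9 positions of the peaks, so whether a peak covers either stretch was not determined. Capitals mark TGCGTCA.
Nr4a1: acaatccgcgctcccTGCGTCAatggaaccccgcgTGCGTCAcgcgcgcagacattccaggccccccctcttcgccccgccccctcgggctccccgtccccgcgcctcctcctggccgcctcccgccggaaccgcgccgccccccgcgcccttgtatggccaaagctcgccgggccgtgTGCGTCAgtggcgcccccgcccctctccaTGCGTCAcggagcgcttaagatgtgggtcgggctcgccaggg
Cd44: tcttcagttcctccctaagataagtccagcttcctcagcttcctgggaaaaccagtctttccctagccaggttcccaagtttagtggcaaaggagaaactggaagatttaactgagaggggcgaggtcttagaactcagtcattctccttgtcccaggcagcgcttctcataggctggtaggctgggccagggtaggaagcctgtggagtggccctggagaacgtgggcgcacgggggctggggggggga

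Neither promoter held the AP-1 motif TGANTCA, the CRE-like motif TGACGTCA or the core of the Maf recognition element, which is TGANTCA preceded by TGC, on either strand. Among 32851 promoter stretches of the same length, these were found in 6.75%, 1.55% and 0.353%. The Nr4a1 stretch held TGCGTCA 4 times, all on the strand of the gene, with first bases 235, 215, 71 and 42 bases before the start, while the Cd44 stretch held none. At least 1 TGCGTCA on either strand occurred in 1.75% of all stretches, and 4 or more occurred in 1 of 32851, which is that of Nr4a1. TGCGTCA was searched after the sequence had been read, so its rarity is no test. The Nr4a1 stretch was rich in G and C, at 74.4% against a median of 52.4% over all stretches, and the Cd44 stretch had 56.4%. As background, AP-1-like elements of the Nr4a1 promoter are known as sites of JunD action in other cells. The match in these letters does not show binding here.

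Across the windows, JunD overlapped 13 of the 23 BACH2 peaks by at least 1 bp, or 56.5% (Wilson 95% interval 36.8 to 74.4, counting of peaks only), against 29.3% of the whole BACH2 list. The share depended on the rule for overlap. With summit and centre within 100 bp it was 30.4%, against 20.5% of the list, and with 50% of both peaks covered it was 13.0%, against 15.3% of the list, so the higher share in the windows was not seen under the strictest rule. BACH2 overlapped 11 of the 21 JunD peaks, or 52.4% (32.4 to 71.7), near the 48.8% of the whole JunD list. The windows differed among themselves. The shared BACH2 peaks numbered 2 of 7 in the Rgs1 window, 8 of 12 in the Cd69 window and 3 of 4 in the Cd44 window, and the Nr4a1 window had no BACH2 peak. The shared JunD peaks numbered 1 of 4, 7 of 11, 3 of 4 and 0 of 2 in the same order. In each of the 13 overlapping pairs the BACH2 peak lay wholly inside the JunD peak, as in 78.8% of the 2677 pairs of the whole lists.

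**Figure D1:**
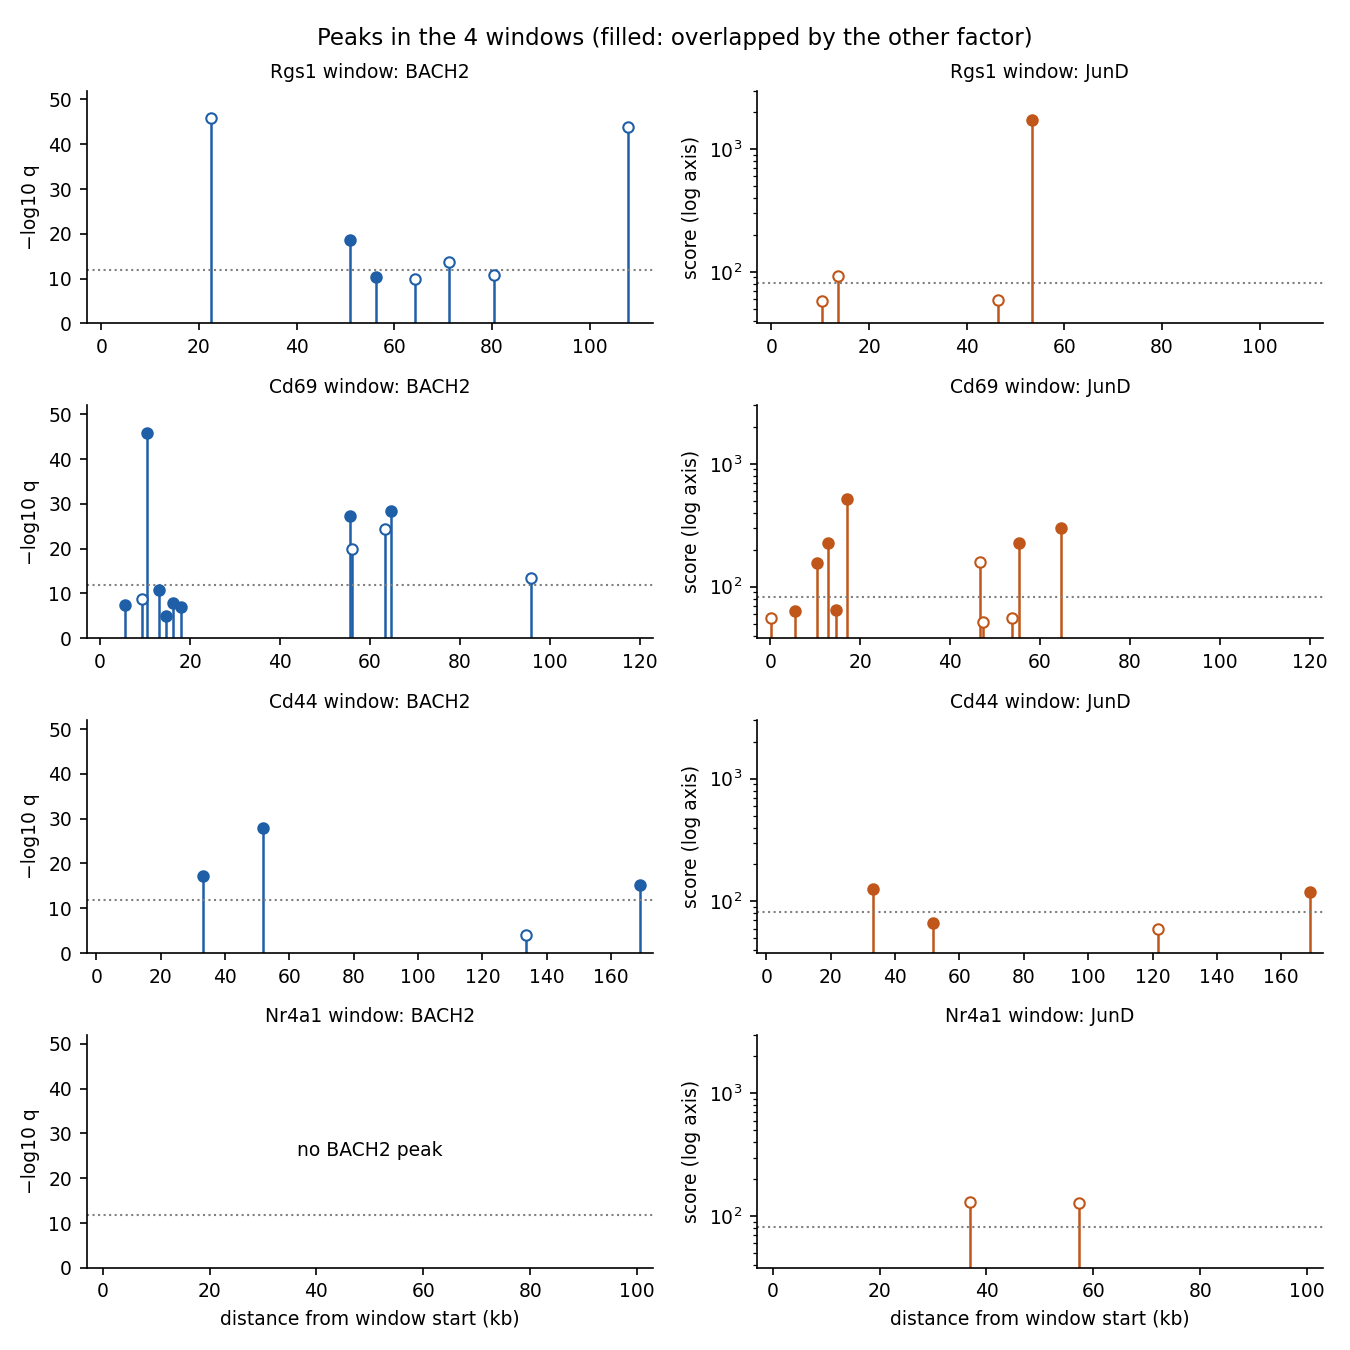
Each stem is 1 peak, placed by its summit (BACH2, left) or centre (JunD, right) in kb from the window start, and its height is the value the authors gave it, −log10 q for BACH2 and the score for JunD (log axis); filled points are overlapped by the other factor, and the dotted lines are the medians of the whole lists, 11.8 and 81.6. The Rgs1 window shows 1 JunD peak of score 1738 between strong BACH2 peaks that are not shared, the Cd69 window shows 2 crowded stretches, and the Nr4a1 window has JunD peaks only.

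Stretches of the same length were laid end to end along the autosomes and X, up to the last peak of each chromosome. Against these, taken factor by factor, the Cd69 window held the least common counts and the Nr4a1 window the most common. For BACH2 in the Nr4a1 window this refers to the share with no peak, since every stretch holds at least 0. The other shares count at least as many peaks. At least 12 BACH2 peaks were found in 0.0502% of 21914 stretches of 120 kb and at least 11 JunD peaks in 0.0365%. Both together occurred in 3 stretches, or 0.0137%. Stretches that cover the windows themselves were not left out of any of these counts. The Cd69 locus is therefore itself among these 3 and among the stretches behind the shares for each factor. At least 7 BACH2 peaks, the count of the Rgs1 window, were found in 0.506% of stretches of 110 kb, at least 4 JunD peaks in 1.01% and both in 0.276%. For the Cd44 window, 4.58% of stretches of 170 kb held at least 4 BACH2 peaks, 1.97% at least 4 JunD peaks and 1.46% both. For the Nr4a1 window, 82% of stretches of 100 kb held no BACH2 peak, 4.15% held at least 2 JunD peaks, and of the 617 with exactly 2 JunD peaks 13.8% held no BACH2 peak. The combination of this window, exactly 2 JunD peaks and no BACH2 peak, was thus found in 85 of 26291 stretches. This exact count is not on the same footing as the joint shares above, which count at least as many peaks. The windows were placed around genes and the stretches on a fixed grid that includes gene-poor regions, so these shares are only a scale.

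**Figure D2:**
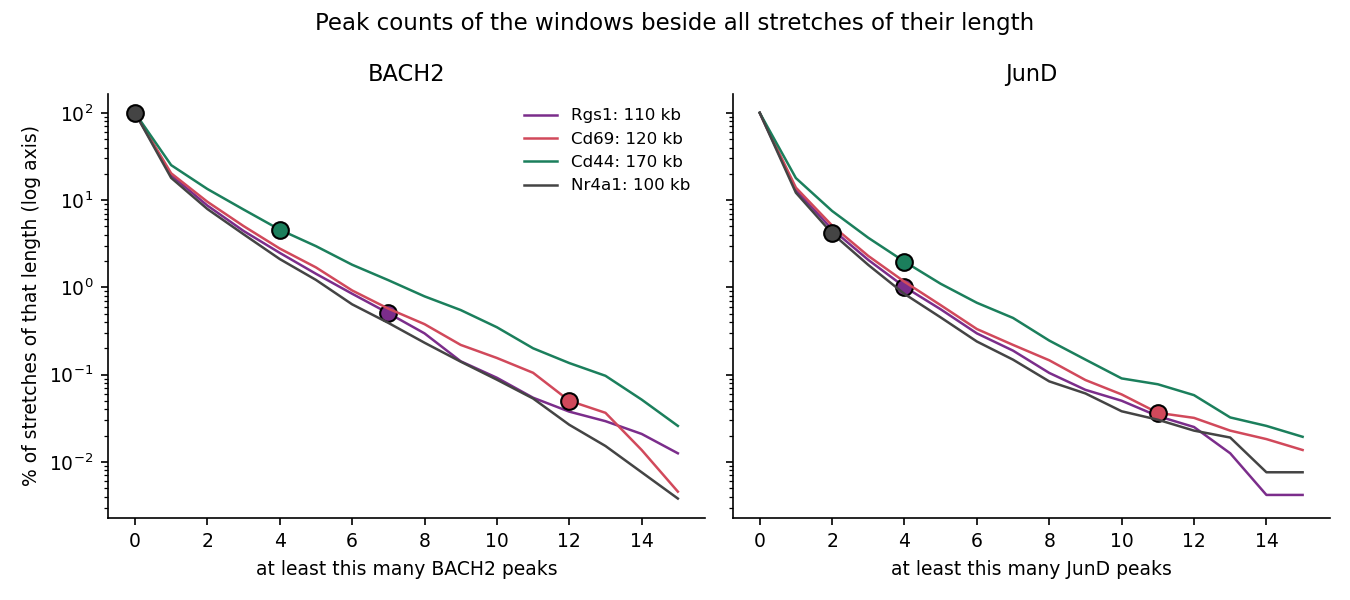
Lines give the share of stretches (log axis) that hold at least the number of BACH2 (left) or JunD (right) peaks on the horizontal axis, for stretches as long as each window; the point on each line is the count of the window itself. The Cd69 points lie at 12 and 11 peaks, where the lines have fallen to 0.0502% and 0.0365%, and the Nr4a1 points lie at 0 and 2. Every stretch holds at least 0 peaks, so the BACH2 point of the Nr4a1 window lies at 100% by definition. Stretches that cover the windows themselves are included.

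The Rgs1 window held the widest JunD peak of the whole list. It ran from 146090094 to 146096584, 6491 bp, ahead of the next widest at 6467 bp, and its score of 1738 ranked 5 of 5237. The other 3 JunD peaks of the window were ordinary in strength, with scores of 57.9, 93.0 and 59.4 against a list median of 81.6, and none met a BACH2 peak. They lay at 146049971 to 146050724, 146053251 to 146054048 and 146086114 to 146086762, all before the wide peak.

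BACH2 peaks lay near both ends of this wide JunD peak and none lay in its middle. The peak near the left end (146090527 to 146091097) was enriched 4.63-fold with a −log10 q of 18.7, and its summit was 815 bp inside the edge. The peak at the right end (146096184 to 146096580) had a fold of 4.24 and a −log10 q of 10.4, with its summit 267 bp inside the edge. The summits were 5.41 kb apart, at 0.75 and 0.92 of the way from the JunD centre to its edges. Of the 11 JunD peaks over 4 kb wide in the list, 9 held BACH2 peaks, and in 4 of these, this peak included, no BACH2 summit was in the central 50% of the width. By −log10 q these BACH2 peaks ranked 2977 and 5068 of 9133, so the fifth-ranked JunD peak covered BACH2 peaks from the upper and the lower part of the BACH2 list.

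The strongest BACH2 peaks of the Rgs1 window were not shared. The peak at 146062427 to 146062777 had a fold of 9.54 and a −log10 q of 45.9 (rank 1038), and the peak at 146147833 to 146148154 had a fold of 9.28 and a −log10 q of 43.9 (rank 1114). Both were in the strongest quintile of the list, and the nearest JunD centres were 8.92 kb and 6.47 kb from their summits. Between the wide JunD peak and the second of them lay 3 further unshared BACH2 peaks, at 146104220, 146111176 and 146120249, with folds of 3.83, 6.16 and 3.59. Their summits were 11 to 27.1 kb from the nearest JunD centre. In this window the −log10 q of the 2 shared BACH2 peaks (10.4 and 18.7) thus fell inside the range of the 5 unshared ones (9.99 to 45.9). Beyond the window, the next BACH2 and JunD peaks on the right began 4.17 kb and 3.82 kb past its end and overlapped each other, and those on the left lay over 106 kb away.

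**Figure D3:**
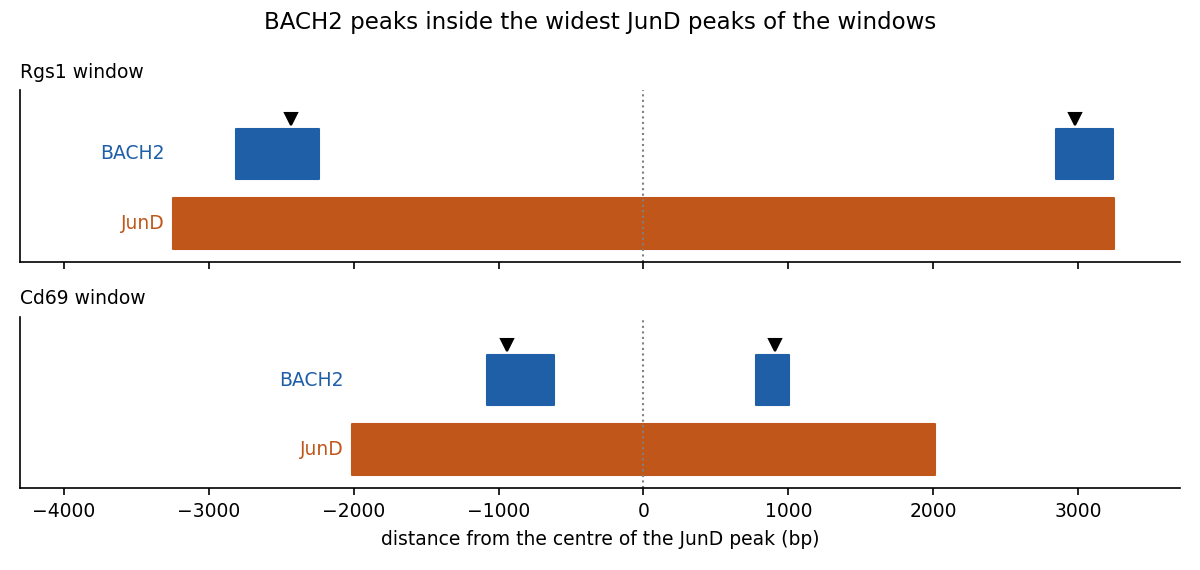
The JunD peaks over 4 kb wide of the Rgs1 and Cd69 windows (orange) and the BACH2 peaks inside them (blue) are drawn to scale by distance from the JunD centre in bp, with triangles at the BACH2 summits. In both the BACH2 summits lie on either side of the centre, at -2430 and 2978 bp in the Rgs1 window and at -944 and 907 bp in the Cd69 window.

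The Cd69 window held the most peaks, in 2 groups when peaks of either list at most 10 kb apart were joined. The first group ran from 129158502 to 129189096, 30.6 kb, reached past the left limit of the window and had 9 BACH2 and 8 JunD peaks. Of these, 8 and 7 were shared. Groups of at least 17 peaks made up 0.0853% of the 8211 groups of both lists. The second ran from 129216271 to 129235500, 19.2 kb, with 4 BACH2 and 5 JunD peaks, of which 2 and 2 were shared. Groups of at least 9 peaks made up 0.853%. A further BACH2 peak at 129265787 to 129265994 stood alone, 31.2 kb from the nearest JunD centre, with a fold of 4.52 and a −log10 q of 13.4.

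Within the first group 1 BACH2 peak stood out and the rest were modest. The peak at 129180254 to 129180679 had a fold of 8.92 and a −log10 q of 45.9 (rank 1041) and lay inside a JunD peak of score 155 (129179869 to 129180939), with 56 bp between summit and centre. The other 6 BACH2 peaks of the group inside the window had folds of 3.65 to 4.77 and −log10 q of 4.92 to 10.8, all below the list medians of 5.75 and 11.8. Their spacing was close, with neighbouring summits of the 7 peaks 1.24 to 3.68 kb apart. Shared pairs of the group included those with BACH2 peaks at 129175394 (fold 3.89, JunD score 63.3, 4 bp from summit to centre), 129182872 (fold 4.77, score 225, 138 bp) and 129184558 (fold 3.71, score 64.4, 99 bp).

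The strongest JunD peak of the Cd69 window was again wide and met weak BACH2 peaks. It ran from 129185078 to 129189096, 4019 bp, ranked 11 by width and 66 by score (522), and held BACH2 peaks at 129186008 (fold 3.79, −log10 q 7.82) and 129187865 (fold 4.01, −log10 q 6.93). Their ranks by −log10 q were 6294 and 6821 of 9133. JunD peaks over 4 kb wide numbered 11 in the list, 0.21%, and 2 of them were these peaks of the Rgs1 and Cd69 windows. The Cd69 peak is the narrowest of the 11 and lies just over the limit, so the count of 2 depends on where the limit was set. Of the 11, 7 held 2 or more BACH2 peaks, 2 held 1 and 2 held none. Among the 9 that were shared, 7 thus held 2 or more, whereas 2 or more BACH2 peaks were found in 4.3% of all shared JunD peaks, most of which are far narrower.

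In the second group of the Cd69 window both factors were above their list medians at the shared sites. A BACH2 peak at 129225306 to 129225729 (fold 6.69, −log10 q 27.3) lay in a JunD peak of score 226, and a BACH2 peak at 129234545 to 129235144 (fold 7.28, −log10 q 28.5) lay in a JunD peak of score 301 (129234012 to 129235500). Summit and centre were 158 and 81 bp apart. The unshared BACH2 peaks of this group were close to JunD peaks without touching them. The peak at 129225905 (fold 6.02) was separated from a JunD peak by 100 bp and the peak at 129233313 (fold 8.22) by 423 bp, and in the first group the unshared peak at 129179059 (fold 3.65) was separated by 389 bp. Of the 4 unshared BACH2 peaks of the window, 3 therefore had a JunD peak within 500 bp of their edge. In the whole list this held for 2.76% of the 6459 unshared BACH2 peaks. The limit of 500 bp lies just above the largest of the 3 gaps, 423 bp, so the count of 3 depends on it. This window also held the most JunD peaks, which the share of the whole list does not take into account. Whether the unshared peaks were closer than this crowding would give was not tested.

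The JunD peaks of the Cd69 window reached high ranks, with 6 of 11 in the strongest quintile. Of these 6, 5 were shared, and the sixth, at 129216271 to 129217043 with a score of 159, had its nearest BACH2 summit 8.92 kb away. The unshared JunD peaks at 129169830, 129217164 and 129223457 had scores of 55.7, 51.2 and 55.8, close to the lowest score in the list, 50. The first of them crossed the left limit of the window, starting 170 bp before it. The next JunD peak to the left, 9.03 kb outside, had a score of 176 and was shared, and the next to the right was 268 kb away.

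The Cd44 window, the longest at 170 kb, held few peaks, spread out, and its shared sites had the smallest median distance from summit to centre, 11 bp. The strongest BACH2 peak (102671715 to 102672066) had a fold of 9.23 and a −log10 q of 27.9 and lay in a JunD peak of score 66.7, below the JunD median, with 11 bp between summit and centre. The strongest JunD peak (102652787 to 102653329, score 127) held a BACH2 peak of fold 7.52 and −log10 q 17.2, at 36 bp. The remaining pair, at 102788722 to 102788956, joined a fold of 4.71 and a −log10 q of 15.1 to a JunD score of 120, at 7 bp. The order of the 3 pairs by BACH2 fold or −log10 q was thus not their order by JunD score.

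The peaks of the Cd44 window that met no peak of the other factor were the weakest of their kind there. The unshared BACH2 peak (102753288 to 102753491) had a fold of 4.35 and a −log10 q of 4.12, rank 8465 of 9133, and the unshared JunD peak (102741368 to 102741825) had a score of 60.2. They lay 11.8 kb apart from summit to centre. No peak of this window was in the strongest quintile of either list. The remaining pair lay near the right limit, 0.85 kb inside it for the JunD peak, and the next BACH2 peak, 7.04 kb outside, had a fold of 4.56 and no JunD peak. The nearest peaks to the left of the window lay 46.3 kb (BACH2, fold 9.75) and 40.2 kb (JunD, score 54.3) outside it.

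The Nr4a1 window held JunD peaks and no BACH2 peak. The JunD peaks lay at 101076718 to 101077217 (500 bp, score 131.2) and 101097181 to 101097588 (408 bp, score 128.6), with centres 20.4 kb apart. Both were in the second quintile, at ranks 1216 and 1252, and both were narrower than the list median of 553 bp. They were alike in strength and stood apart from all others, as the only JunD peaks between 100585692 and 101921645, a stretch of 1336 kb. The nearest BACH2 peaks lay 455 kb before the window (fold 3.26) and 841 kb after it (fold 5.08), which leaves 1396 kb without a BACH2 peak. Gaps of at least that length were 422 of the 9113 between neighbouring BACH2 peaks, or 4.63%, against a median gap of 42.8 kb. This share counts gaps by number, and a long gap covers more of the genome than a short one. The share of the genome that lies in such gaps is thus larger and was not computed. A site below the threshold of the BACH2 list would not be seen, and at an unknown depth the lack of a peak does not show a lack of binding. With 0 of 2 JunD peaks shared, the Wilson upper limit of the share is 65.8%.

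The distance between summit and centre was largest in the Rgs1 window, and those of the Cd44 and Cd69 windows overlapped. It was 7 to 36 bp in the 3 pairs of the Cd44 window, 4 to 944 bp in the 8 pairs of the Cd69 window with a median of 118.5 bp, and 2430 and 2978 bp in the 2 pairs of the Rgs1 window. Over all 13 pairs the median was 99 bp and 7 pairs were within 100 bp, against a median of 55 bp and 70.1% of the 2677 pairs of the whole lists. The JunD peak width moved with this distance, since the 4 pairs farthest apart were the 4 in JunD peaks over 4 kb wide, and its part in the distance was not tested.

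Shared JunD peaks of the windows had a higher median score than the unshared ones, as in the whole list, and for BACH2 the direction differed between windows. The 11 shared JunD peaks had a median score of 155 (63.3 to 1738) and 8 of them were above the list median, while the 10 unshared ones had a median of 59.8 (51.2 to 159) and 4 were above it. In the whole list, 60.2% of shared and 40.2% of unshared JunD peaks were above the median. The 13 shared BACH2 peaks had a median −log10 q of 15.1 (4.92 to 45.9) and the 10 unshared ones 13.6 (4.12 to 45.9), with 7 of 13 and 6 of 10 above the list median, against 60.5% and 45.6% in the whole list. The median −log10 q of shared and unshared BACH2 peaks was 14.5 and 13.7 in the Rgs1 window and 9.31 and 16.6 in the Cd69 window, while in the Cd44 window the shared median was 17.2 and the only unshared peak had 4.12. By fold the medians were 4.71 and 5.27, in the other direction. Over all windows together, the ranges of shared and unshared peaks overlapped for each factor. For BACH2 they also overlapped in the Rgs1 and Cd69 windows. They did not in the Cd44 window, where the shared −log10 q ran from 15.1 to 27.9 and the unshared peak had 4.12. JunD scores of shared and unshared peaks overlapped in the Cd69 window but not in the Rgs1 and Cd44 windows.

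BACH2 peaks in the Rgs1 and Cd69 windows had high −log10 q for their fold. Each peak was set beside all BACH2 peaks of the list whose fold was within 10% of its own. In the Rgs1 window 7 of 7 peaks exceeded the median −log10 q of these, in the Cd69 window 11 of 12, and in the Cd44 window 2 of 4, against 51% of the whole list. The peak at 146090527 in the wide JunD peak of the Rgs1 window had a −log10 q of 18.7 where peaks of like fold had a median of 7.69, and it exceeded 98.9% of them. The peak at 146120249, with a fold of only 3.59, had 10.9 against 5.23 and exceeded 96.4%. The median percentile was 87.3 in the Rgs1 window, 83.0 in the Cd69 window and 47.3 in the Cd44 window. Over the 3 windows, 13 of the 23 BACH2 peaks were above the list median by −log10 q and 10 by fold, a difference of 1 peak in each window.

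**Figure D4:**
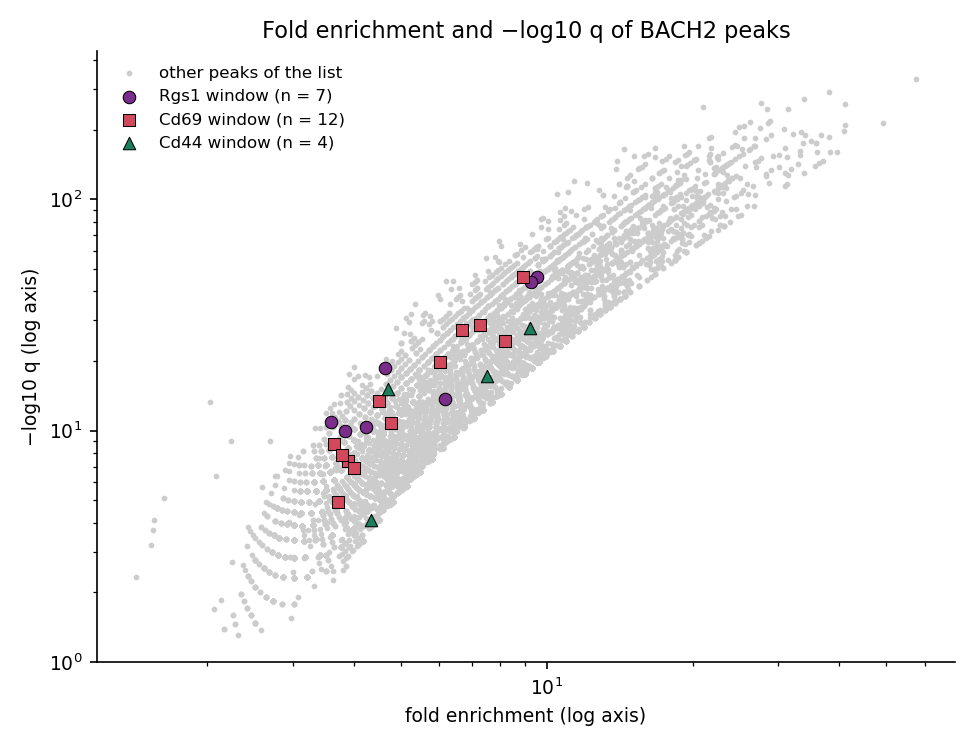
Fold enrichment and −log10 q of every BACH2 peak (both log axes), with the 23 peaks of the windows in colour and the rest of the list in grey. The 7 Rgs1 and all but 1 of the 12 Cd69 points lie above the median −log10 q of peaks of like fold, and the 4 Cd44 points are spread, with percentiles of 42.2, 52.3, 7.06 and 95.2 from left to right along the chromosome.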

How the data were processed

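Peak lists of 1 BACH2 and 1 JunD ChIP-seq library were used. The submitters' processing notes name Bowtie 0.12.9 and the builds mm9 and NCBIM37, which are names of the same assembly. The version and control of the peak caller, and whether reads were pooled, were not given in the sources used here. Each peak of the deposited BACH2 list, which has the narrowPeak layout, carries a fold enrichment, a −log10 p, a −log10 q, a summit and an integer score, the last of which was not used. The deposited JunD list gives each peak a score of unstated scale. These values are the authors' own for each peak and were used only within a list. Neither list holds read counts, so depth is unknown.

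Coordinates are mm9, counted from 1. Peaks overlapping a window or each other by at least 1 bp were kept or called shared. Ranks ran from the highest −log10 q or score, and quintile 1 is the strongest. JunD centres stood for summits. The rule for named peaks took every shared pair, the strongest peak of each list per window and any peak of quintile 1, and other peaks were named after their values were seen. Windows, lists and comparisons were chosen with earlier results of these data known. Other activation genes were not placed, since no mm9 annotation was used. The comparison of −log10 q at like fold, the groups joined at 10 kb and the stretches were descriptions without tests. The code that counts overlaps was checked on simulated lists with planted overlaps, which is no test of the overlap itself. Python 3.11.15, numpy 2.4.6, pandas 2.3.3, scipy 1.17.1 and matplotlib 3.10.9 were used.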

Additional observations from a re-analysis of the deposited data

How the results depend on the processing

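Of 56 values recomputed under other settings, 41 stayed within 1.5 times the reported count or distance, or within the interval of the reported share. Some of the 41 could not move. Each overlapped BACH2 peak lay wholly inside its JunD peak, so requiring 50% of the BACH2 peak changed nothing. Leaving out the Nr4a1 window, which has no BACH2 peak, could not change the BACH2 count, the BACH2 share or the distance. The intervals of the shares are also wide, 36.8 to 74.4 for BACH2 and 32.4 to 71.7 for JunD. Keeping only the stronger 50% of both lists left 13 BACH2 and 12 JunD peaks, as did halving either list alone for its own count. Windows 20 kb shorter at both ends left 14 and 12. Requiring 50% of both peaks to be covered lowered the shared part to 13.0% for BACH2, to 14.3% for JunD and the median distance to 36 bp. Requiring summit and centre within 100 bp gave 30.4% of BACH2 peaks and a distance of 36 bp, and the stronger 50% of BACH2 peaks gave 56 bp. Fewer peaks enter by construction where a list or window was cut. Requiring 50% of both peaks can only lower the shares, and the 100 bp limit keeps only the closer pairs and so lowers the distance. The cause of the other changes was not tested. Leaving out each window in turn gave 11 to 23 BACH2 peaks, 10 to 19 JunD peaks, 45.5% to 68.8% of BACH2 and 40.0% to 58.8% of JunD peaks shared, and distances of 36 to 148 bp. The low ends of both counts, of both shares and of the distance came from leaving out the Cd69 window, which holds 12 BACH2 and 11 JunD peaks. No paired analysis was possible because the factors had a single library each. Weak sites that missed the authors' thresholds cannot be seen, and the depth is unknown.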
